A study of Mus musculus with 12 samples.

Results

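Expression of 7 genes of the fibroblast growth factor (FGF) family was followed in visceral white adipose tissue of mice. They are the ligands Fgf1, Fgf2, Fgf10 and Fgf21, the FGF homologous factor Fgf13, the receptor Fgfr1, and Klb, which encodes the co-receptor beta-klotho. The 7 genes were picked by symbol out of 50559 gene rows, and all 7 lie among the 16550 genes that passed the filter on low counts. The list was chosen by changes already seen in these same libraries, and which comparison put each gene on it is not recorded. Levels, differences and standard errors (SE) of the 7 genes are therefore given as a description, with no p-value, and nothing is read from whether one of them passed a threshold.

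The animals were FVB/N mice in 4 groups of 3 libraries each. The groups called wild type here carried alphaMHC tTA, a driver active in heart muscle cells, and the groups called transgenic carried alphaMHC tTA x alphaMHC TGFb, so that TGF-b1 was overexpressed in the heart and not by a fat promoter. All 4 groups therefore share the tTA driver. Each genotype was sampled on a control chow (17% of kcal from fat) and on a high-fat diet (60% of kcal from fat), started at 8 to 10 weeks of age and given for 2 or 6 weeks. The labels do not say which time applies to which library, or whether a library came from 1 animal, so the errors below measure the spread between libraries.

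FGFs are signalling proteins that mostly act on neighbouring cells through receptor tyrosine kinases, with heparan sulfate as a cofactor. Fgf21 belongs to the hormone-like subgroup and needs beta-klotho beside Fgfr1 to signal in adipocytes. Fgf13 belongs to the FGF homologous factors, which are not secreted in the usual way, stay inside the cell and are best known for binding voltage-gated sodium channels in neurons and heart.

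Gene counts summed to between 20101240 and 21337312 a library. The adipocyte marker list (10 of 10 genes found, among them Adipoq and Plin1) summed to 27900 to 36000 CPM (read counts per library scaled to a common total, after TMM scaling) in the 12 libraries. Epithelial markers stood out in wild-type control library 1 (101 CPM in sum) and in transgenic control library 2 (398 CPM), against 12.9 to 43 CPM elsewhere. Liver markers stood out in wild-type high-fat library 2, with a mean log2(CPM + 1) of 4.33 against 1.71 to 2.38 elsewhere. Muscle markers stood out in wild-type high-fat library 3 (509 CPM) and transgenic control library 3 (754 CPM), against 7.65 to 82.5 CPM elsewhere. In bulk tissue, fewer cells of a type and less RNA per cell cannot be told apart.

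Fgf13 spans chrX:59062139-59585572 on the minus strand (mm10/GRCm38) and has 9 annotated transcripts with 8 different starts. Its known isoforms differ in the first exon, and the deposited count sums reads over all of them. RefSeq (GRCm38.p6) gives 4 promoter windows for it, each reaching from 250 bases before a start to 50 bases after it. The second and the third window are printed because they show how unlike the starts are that 1 Fgf13 count merges. The second window, chrX:59567299-59567598 (minus strand), lies 18.2 kb downstream of the first start, has 74.3% G and C and holds 40 CpG dinucleotides. The third, chrX:59166039-59166338 (minus strand), lies 419 kb downstream, has 40.3% G and C and holds 6 CpG. The medians over 32851 RefSeq promoter windows were 52.7% and 7 CpG. Both are written 5′ to 3′ on the gene's strand, and capitals mark matches to the motifs named below them.
Fgf13 window 2: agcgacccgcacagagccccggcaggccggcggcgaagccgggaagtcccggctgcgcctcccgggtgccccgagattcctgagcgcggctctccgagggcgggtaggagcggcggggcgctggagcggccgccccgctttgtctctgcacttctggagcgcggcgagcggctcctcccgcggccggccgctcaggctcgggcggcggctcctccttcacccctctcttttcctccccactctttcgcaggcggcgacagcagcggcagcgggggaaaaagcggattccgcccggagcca
Fgf13 window 3: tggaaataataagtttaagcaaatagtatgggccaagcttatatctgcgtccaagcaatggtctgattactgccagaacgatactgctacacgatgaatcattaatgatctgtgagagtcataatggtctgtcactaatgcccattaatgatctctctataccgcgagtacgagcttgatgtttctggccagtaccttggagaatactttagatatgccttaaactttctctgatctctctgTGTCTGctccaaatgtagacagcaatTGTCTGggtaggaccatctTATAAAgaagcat
Searched on both strands were TATAAA, GTCTAGAC (a Smad palindrome), CAGACA (a Smad box), AGGTCA (a nuclear receptor half-site) and CCAAT. None of these overlaps another in the printed windows. The second window held none of them. The third held CAGACA on the opposite strand, read as TGTCTG, at positions -8 and 19 from the start, and TATAAA at position 38. Over all windows, 21% held CAGACA and 13.6% held TATAAA. A match is a description of letters only, and gene counts do not show which start was in use.

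Of the 7 genes, Fgf13 had the widest range as a ratio, its highest library being 5.24 times its lowest. In wild-type mice on control diet it measured 46.3, 40.9 and 54.7 CPM in libraries 1, 2 and 3. On high-fat diet the wild-type libraries held 110, 82.6 and 75.7 CPM. The transgenic control libraries held 21.8, 21.1 and 22.2 CPM, and the transgenic high-fat libraries 83.6, 105 and 98 CPM. Every high-fat library thus lay above every control library of either genotype, every transgenic control library lay below every wild-type control library, and the 2 high-fat groups overlapped.

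The group means of Fgf13 were 21.7 ± 0.556 CPM (SD, n = 3) in transgenic control, 47.3 ± 6.93 in wild-type control, 89.6 ± 18.4 in wild-type high-fat and 95.5 ± 10.9 in transgenic high-fat tissue. The last pair of neighbours in this order did not differ beyond the spread of the libraries. With high-fat diet Fgf13 was 1.89-fold higher in wild type (log2 difference 0.92, SE 0.15) and 4.4-fold higher in transgenic mice (2.14, SE 0.15). On control diet it was 0.459 times the wild-type level in transgenic mice (-1.12, SE 0.15), and on high-fat diet 1.07 times (0.09, SE 0.15). The diet difference was 1.22 larger in transgenic than in wild-type mice on the log2 scale (SE 0.21). In the authors' deposited table the Fgf13 differences were 0.93 and 2.14 with diet in wild-type and transgenic mice, -1.12 with the transgene on control diet and 0.09 on high-fat diet. The diet and genotype comparisons share control libraries, so the large transgenic diet difference and the low transgenic control level are not independent observations.

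**Figure D1:**
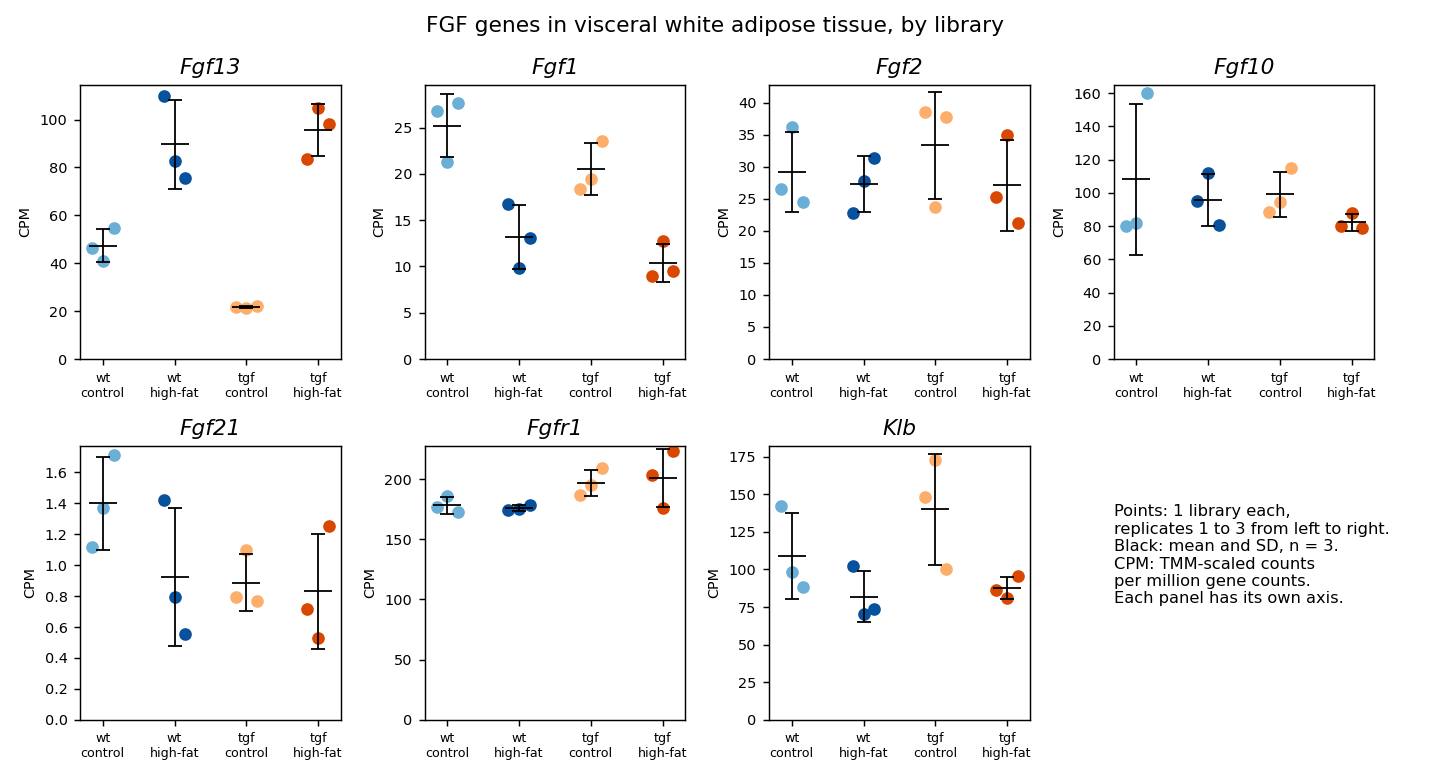
CPM of each of the 7 genes (y axes, linear, starting at 0, 1 axis a panel) in the 4 groups (x axes); each point is a library and black bars show mean and SD (n = 3). Fgf13 lies near 22 CPM in the 3 transgenic control libraries and at 75.7 to 110 CPM in the 6 high-fat libraries, and Fgf1 is lower in both high-fat groups.

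A ratio of counts taken within a library does not depend on how libraries are scaled to each other. There were 1.73, 1.92 and 1.98 Fgf13 counts per Fgf1 count in wild-type control libraries 1 to 3 and 6.6, 8.42 and 5.78 in wild-type high-fat libraries. In transgenic libraries the ratio was 1.19, 1.09 and 0.939 on control diet and 9.27, 8.23 and 10.3 on high-fat diet. Against Fgfr1, whose highest library was 1.29 times its lowest, the Fgf13 ratio ran from 0.106 to 0.117 in transgenic control, 0.22 to 0.317 in wild-type control, 0.424 to 0.634 in wild-type high-fat and 0.412 to 0.598 in transgenic high-fat libraries. Both ratios kept the 2 high-fat groups above the 2 control groups in every library. Fgf1 was itself lower on high-fat diet and chosen from these libraries. The ratio to Fgf1 therefore holds the differences of both genes and does not measure Fgf13 alone.

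Fgf13 is abundant in neurons. The neuron marker list summed to 16.2 to 24.9 CPM in wild-type control, 13.5 to 17.5 in wild-type high-fat, 15.8 to 46.6 in transgenic control and 11.8 to 16.6 in transgenic high-fat libraries. Most of that sum came from Stmn2, a microtubule regulator, and Uchl1, a ubiquitin hydrolase, at means of 11.2 and 7.07 CPM, while Th, Dbh, Snap25 and Syt1 had at most 9 counts each over the 12 libraries together. The Schwann cell list summed to 62.2 to 95.1 CPM in 11 libraries and to 233 CPM in wild-type control library 1, whose Fgf13 level lay between those of the other wild-type control libraries. Macrophage markers (10 of 10 found) were lowest in the transgenic control group, as Fgf13 was, but overlapped between the wild-type groups. Their median log2 difference with diet was 0.19 in wild type and 0.5 in transgenic mice. They summed to 666 to 709 CPM in transgenic control, 816 to 1010 in wild-type control, 883 to 1040 in wild-type high-fat and 835 to 1190 in transgenic high-fat libraries. Within wild-type high-fat tissue Fgf13 and the macrophage sum put the libraries in the same order. Within each of the other groups they did not. In transgenic control tissue the library richest in macrophage markers (709 CPM) had the highest Fgf13 (22.2 CPM). In transgenic high-fat tissue the richest library (1190 CPM) had the lowest Fgf13 (83.6 CPM). T and NK cell markers summed to 5.13 to 7 CPM in transgenic control, 6.99 to 10.4 in wild-type control, 12.1 to 14.7 in wild-type high-fat and 6.62 to 15.9 in transgenic high-fat libraries. With diet 9 of 9 of them had a positive difference in each genotype, with medians of 0.73 in wild type and 0.95 in transgenic mice. Of these, edgeR called 0 of 9 in wild type and 1 of 9 in transgenic mice, beside 1.14% and 8.73% of all genes. The part of cell composition in the Fgf13 differences was not tested.

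The 5 genes whose log2 CPM followed Fgf13 most closely over the 12 libraries, of 13086 compared, were Tspan17 (Pearson r 0.967), H2-DMa (0.967), Npr3 (0.964), Cd52 (0.963) and Reep5 (0.961). Tspan17 is a tetraspanin, H2-DMa loads peptides onto MHC class II molecules, Npr3 clears natriuretic peptides, Cd52 is a surface glycoprotein of immune cells and Reep5 shapes the endoplasmic reticulum. After group means were taken out, the r values were 0.24 to 0.49, so most of the likeness lay between groups. H2-DMa, Cd52 and Reep5 had group means in the same order as Fgf13 throughout. Npr3 had that order at the control end, with 581 ± 34.1 CPM (SD, n = 3) in transgenic and 1110 ± 36 in wild-type tissue. At the high-fat end it had 1610 ± 48.5 in wild-type and 1460 ± 225 in transgenic tissue, and Tspan17 had 68.2 and 67.3 CPM. Libraries of the high-fat groups overlapped for each of the 5 genes. The nearest measured neighbours of Fgf13 on the X chromosome, Rbmx at 1670 kb and Gm5637 at 460 kb, were called in none of the 5 comparisons.

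Fgf1, an FGF that binds all FGF receptors and is known as a PPAR gamma target in adipocytes, had lower levels on high-fat diet. Wild-type control libraries held 26.8, 21.3 and 27.6 CPM, and wild-type high-fat libraries 16.7, 9.81 and 13.1 CPM. Transgenic control libraries held 18.4, 19.4 and 23.6 CPM, and transgenic high-fat libraries 9.02, 12.8 and 9.52 CPM. No high-fat library reached a control library of its own genotype. The log2 difference with diet was -0.93 (SE 0.20) in wild-type and -0.97 (SE 0.20) in transgenic mice, and these 2 values differed by -0.04 (SE 0.28). Between genotypes Fgf1 differed by -0.30 on control diet and -0.34 on high-fat diet (SE 0.20 each), with overlapping libraries in both.

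Markers of mesothelium, the sheet of cells on the surface of visceral fat, were lower on high-fat diet in both genotypes, as Fgf1 was. All 10 genes of that list, among them Msln and Upk3b, had counts in all 12 libraries. Their sum ran from 635 to 1040 CPM in wild-type control and 408 to 527 in wild-type high-fat libraries, and from 708 to 862 in transgenic control and 139 to 401 in transgenic high-fat libraries. Their median log2 difference with diet was -0.71 in wild type and -1.21 in transgenic mice. With diet edgeR called 0 of 10 in wild type and 6 of 10 in transgenic mice, all lower, beside 1.14% and 8.73% of all genes. The libraries with the lowest and the highest mesothelial sum, transgenic high-fat 3 and wild-type control 3, held 9.52 and 27.6 CPM of Fgf1, but they also differ in diet. Within wild-type control tissue Fgf1 and the mesothelial sum put the libraries in the same order. Within each of the other groups they did not. Erythroid markers were also lower on high-fat diet. They summed to 598 to 984 CPM in wild-type control and 311 to 446 in wild-type high-fat libraries. In transgenic libraries they summed to 656 to 1200 on control and 423 to 760 on high-fat diet. In each genotype 1 of 7 was called lower by edgeR, beside 1.14% (wild type) and 8.73% (transgenic) of all genes. The part of mesothelial or erythroid RNA in the Fgf1 differences was not tested. Fgf1 and Fgf13 differed in opposite directions between diets, but within groups their deviations went together (r 0.73 over 12 libraries, a description over libraries that share groups). This pair was taken from all pairs of the 7 genes, among which Fgf2 and Fgf21 had a within-group r of -0.76.

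**Figure D2:**
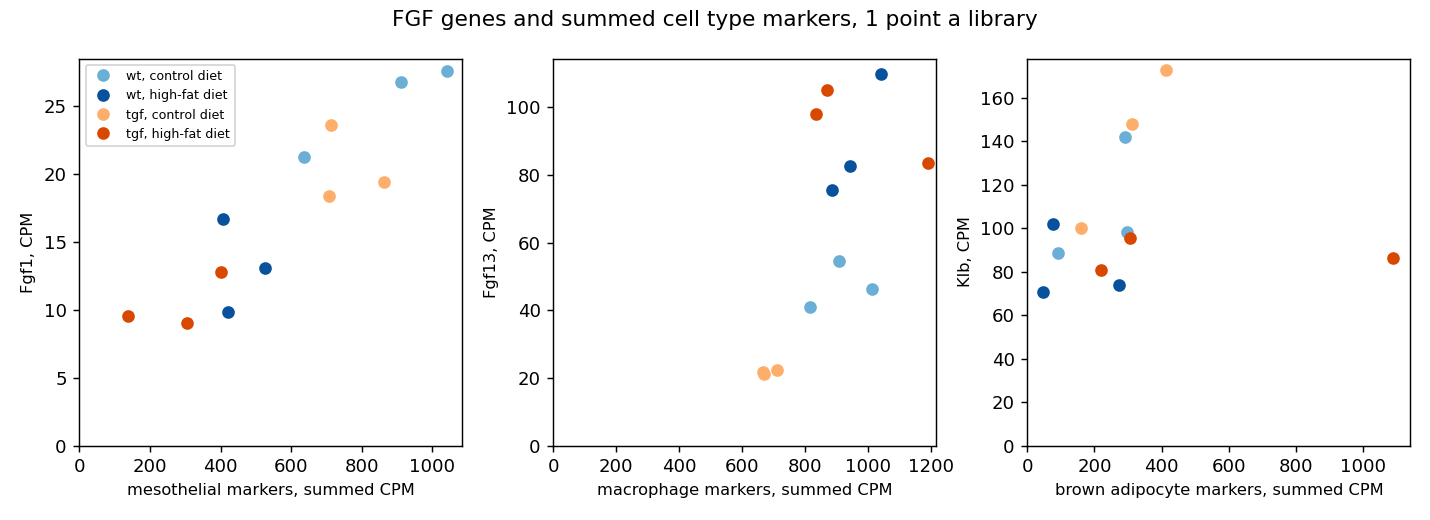
Left, Fgf1 against summed mesothelial markers; middle, Fgf13 against summed macrophage markers; right, Klb against summed brown adipocyte markers, all in CPM, with 1 point for each of the 12 libraries and colour for the group. The 6 high-fat libraries are lower than the 6 control libraries in both Fgf1 and mesothelial markers, the 3 transgenic control libraries are lowest for both Fgf13 and macrophage markers, and 1 transgenic high-fat library has 1090 CPM of brown adipocyte markers with 86.4 CPM of Klb.

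Fgf2, a broadly made heparin-binding growth factor, measured 26.5, 36.2 and 24.5 CPM in wild-type control, 22.7, 27.7 and 31.4 in wild-type high-fat, 38.6, 23.7 and 37.7 in transgenic control and 25.2, 35 and 21.2 in transgenic high-fat libraries. The libraries of every pair of groups compared overlapped. The differences were -0.09 and -0.30 with diet in wild-type and transgenic mice and 0.20 and -0.01 with the transgene on control and high-fat diet (log2, SE 0.23 each). Of the exon bases of Fgf2, 9.44% also lie in exons on the other strand, where Nudt6 is annotated, and 3.76% in those of another gene on its own strand. Reads there could belong to either gene, because no source used here says whether counting kept the strand.

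Fgf10, made by stromal cells and needed for fat cell precursors in development, held 80.2, 82.1 and 160 CPM in wild-type control libraries, the third standing apart from the other two. The wild-type high-fat libraries held 94.8, 112 and 80.5 CPM, the transgenic control libraries 88.7, 94.2 and 115, and the transgenic high-fat libraries 80.2, 87.9 and 78.6. The transgenic high-fat libraries were all below the transgenic control libraries, by a log2 difference of -0.27 (SE 0.23). In wild type the difference with diet was -0.17 (SE 0.23), and without control library 3 its sign turned, to 0.24.

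Fgf21, a hormone released mainly by the liver in fasting and made at lower levels in fat, was the scarcest of the 7 genes, with 11 to 37 counts a library. It measured 1.12, 1.37 and 1.71 CPM in wild-type control, 1.42, 0.791 and 0.557 in wild-type high-fat, 0.794, 1.1 and 0.768 in transgenic control and 0.719, 0.528 and 1.25 in transgenic high-fat libraries. The transgenic control libraries were all lower than the wild-type control libraries (log2 difference -0.66, SE 0.40), and the other pairs of groups overlapped. Differences with diet were -0.60 (SE 0.40) in wild-type and -0.09 (SE 0.42) in transgenic mice.

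On the receptor side, Fgfr1, the main FGF receptor of adipocytes, was the steadiest gene. It held 177, 186 and 173 CPM in wild-type control, 174, 175 and 178 in wild-type high-fat, 187, 195 and 209 in transgenic control and 203, 176 and 223 in transgenic high-fat libraries. Diet differences were -0.02 and 0.03, and transgene differences 0.14 on control diet and 0.19 on high-fat diet (log2, SE 0.10 each). All 3 transgenic control libraries lay above the wild-type control libraries by a narrow margin.

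Klb held 142, 98.3 and 88.4 CPM in wild-type control, 102, 70.6 and 73.9 in wild-type high-fat, 148, 173 and 100 in transgenic control and 86.4, 80.8 and 95.7 in transgenic high-fat libraries. Within transgenic mice every high-fat library was below every control library, by a log2 difference of -0.68 (SE 0.22), while the wild-type groups overlapped (-0.42, SE 0.22). The transgene differences were 0.36 on control diet and 0.10 on high-fat diet (SE 0.22 each). Within a library there were 0.48 to 0.885 Klb counts per Fgfr1 count in transgenic control and 0.426 to 0.46 in transgenic high-fat tissue. The control libraries with the most Klb in each genotype, wild type 1 and transgenic 2, were also the 2 with epithelial transcripts, and transgenic control library 3, with muscle transcripts, had the least of its group. Without both epithelial libraries Klb differed by -0.50 with diet in transgenic mice, and without both muscle libraries by -0.87. Brown adipocyte markers summed to 311, 414 and 161 CPM in transgenic control libraries 1 to 3, in the same order as Klb, and to 1090, 221 and 307 in the high-fat libraries, in another order; their part was not tested.

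**Figure D3:**
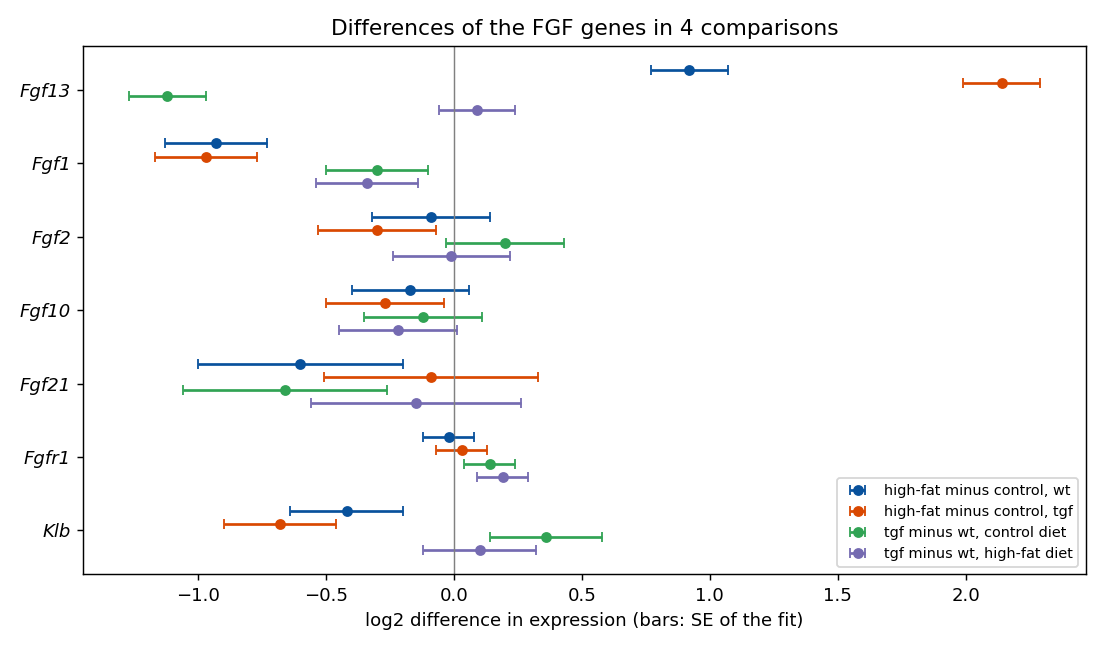
Log2 difference of each of the 7 genes (rows) in 4 comparisons (colours, x axis), with SE bars from the fit over 12 libraries. Fgf13 lies at 2.14 and 0.92 for diet and at -1.12 for the transgene on control diet, Fgf1 lies below 0 for diet in both genotypes, and Fgfr1 stays within 0.19 of 0.

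Against the whole table, edgeR's quasi-likelihood test called 188 of 16550 genes with diet in wild type (1.14%) and 1445 in transgenic mice (8.73%) at an adjusted p below 0.05 (Benjamini-Hochberg). It called 6 genes between the genotypes on control diet (0.0363%), 0 on high-fat diet (0%) and 0 for the difference between the diet effects (0%). At an unadjusted p below 0.05, 1114 genes stood out between the genotypes on high-fat diet and 929 for the difference between the diet effects. limma-voom called 0 and 0 there. DESeq2 called 871 (5.61% of the genes it gave an adjusted p) and 2209 (13.4%) with diet in wild-type and transgenic mice, 262 (1.88%) and 9 (0.0813%) between the genotypes on control and high-fat diet, and 27 (0.164%) for the difference between the diet effects. Of the 7 FGF genes, Fgf13 (higher) and Fgf1 (lower) were among the genes called with diet in each genotype, Fgf13 (lower) was among the 6 between the genotypes on control diet, and none was called in the other 2 comparisons. Since such values chose the genes, nothing is read from these counts.

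The median difference of the 7 genes was -0.17 with diet in wild type and -0.27 in transgenic mice, against -0.01 and -0.02 over all genes tested. For the transgene it was -0.12 on control diet and -0.01 on high-fat diet, and for the difference between the diet effects -0.04, against 0, 0 and 0.01 over all genes.

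Libraries of the groups compared did not overlap for 2 of the 7 genes with diet in wild type, 4 with diet in transgenic mice, 3 with the transgene on control diet and 0 on high-fat diet. Over all genes tested the share without overlap was 24.9%, 27.8%, 14.1% and 14% in these comparisons.

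**Figure D4:**
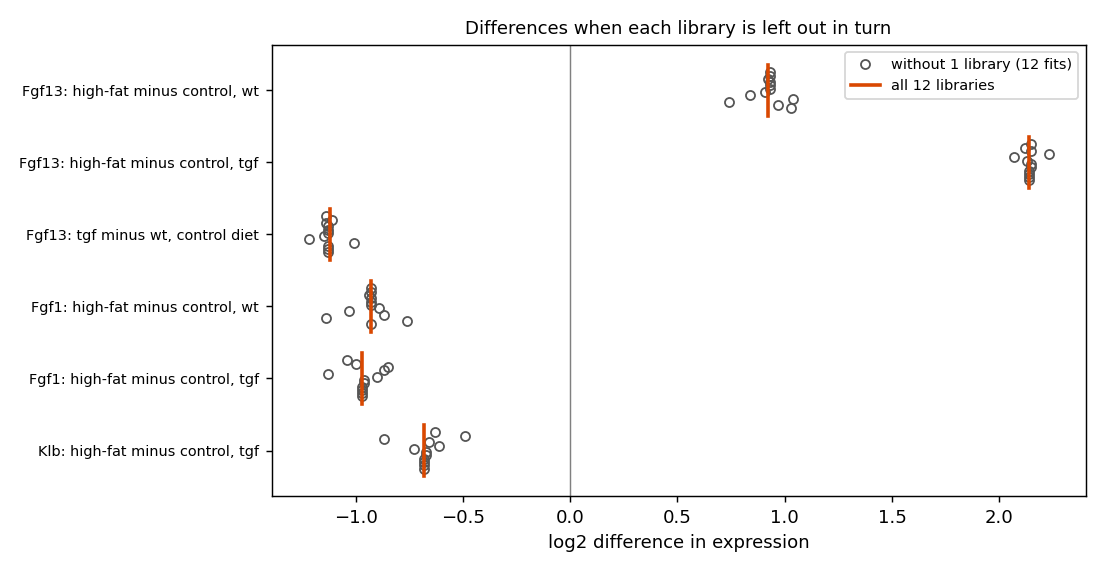
Log2 difference (x axis) of Fgf13, Fgf1 and Klb in 6 comparisons (rows) with all 12 libraries (orange line) and in 12 fits that each left out 1 library (circles). Fgf13 keeps 2.07 to 2.23 for diet in transgenic mice and -1.22 to -1.01 for the transgene on control diet, and Klb runs from -0.87 to -0.49 for diet in transgenic mice.

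Levels of different genes were set side by side per kilobase of exon, over the union of all annotated exons. In wild-type control tissue the order was Klb (24.1 ± 6.22 CPM per kb, SD, n = 3), Fgf10 (23.4 ± 9.94), Fgfr1 (18.1 ± 0.675), Fgf13 (11.8 ± 1.73), Fgf1 (4.62 ± 0.621), Fgf2 (4.29 ± 0.918) and Fgf21 (1.47 ± 0.315). Libraries of Klb and Fgf10, of Fgf10 and Fgfr1, and of Fgf1 and Fgf2 overlapped. Fgf13 was first in both high-fat groups, at 22.3 ± 4.58 CPM per kb in wild-type and 23.8 ± 2.72 in transgenic tissue, though each time its libraries overlapped those of the next gene. In transgenic control tissue it was the fourth, at 5.4 ± 0.138 CPM per kb, and overlapped Fgf2 (4.92 ± 1.23). Fgf21 was last in all 4 groups and its libraries did not overlap those of the next gene in any of them. The order at the top depends on the length used, since per kilobase of the longest transcript Fgfr1 rose to 35.4 CPM per kb against 30.9 for Klb and 18.9 for Fgf13 in wild-type control tissue. By that length Fgfr1 also came before Fgf13 in transgenic high-fat tissue (39.8 against 38.2 CPM per kb, with overlapping libraries). Fgf13 stayed first in wild-type high-fat tissue (35.8 against 34.9 CPM per kb for Fgfr1, with overlapping libraries).

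**Figure D5:**
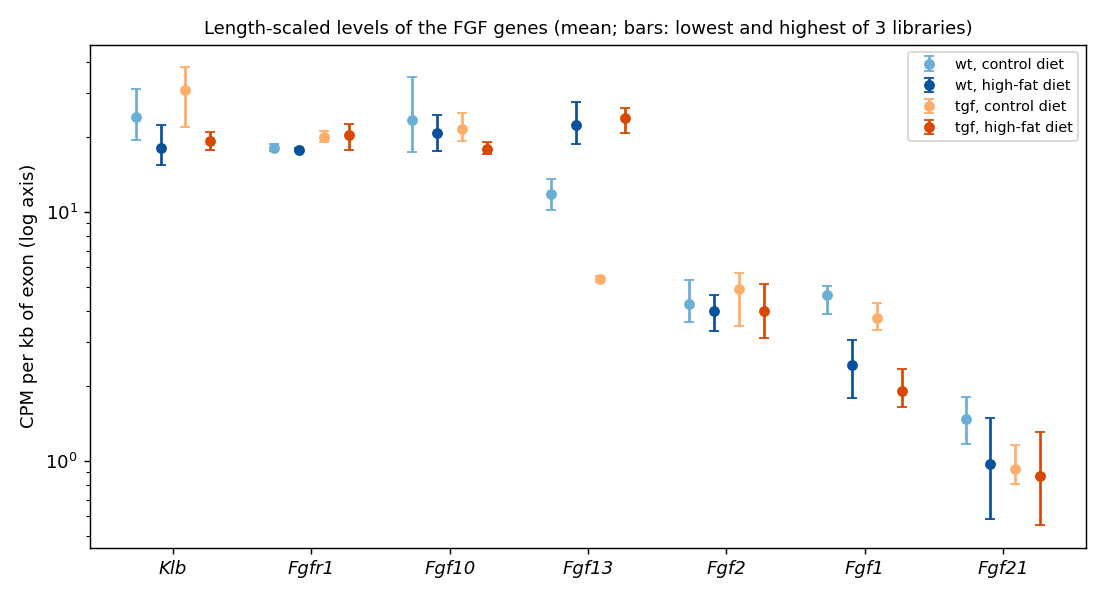
Mean CPM per kb of exon (y axis, log scale) of the 7 genes (x axis) in the 4 groups (colours), with bars from the lowest to the highest of 3 libraries. Fgf13 moves from 5.4 in transgenic control to 23.8 in transgenic high-fat tissue, while Fgfr1 stays between 17.8 and 20.3 and Fgf21 lies lowest in every group.

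The Klb gene lies at chr5:65348411-65386957 (plus strand), Fgfr1 at chr8:25518759-25575718 (plus), Fgf21 at chr7:45613890-45615490 (minus), Fgf10 at chr13:118714699-118792573 (plus), Fgf2 at chr3:37348477-37410106 (plus) and Fgf1 at chr18:38838672-38929470 (minus), all in GRCm38. Small shares of the exon bases of Fgf10 (2.67%) and Fgfr1 (1.66%) are also annotated to genes on the other strand.

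Among 117 further genes of the FGF pathway, in 7 lists by role, 94 passed the filter. These lists were also written with earlier results of these libraries known. Of the 17 other FGFs, ligands and homologous factors together, 6 were tested, and none was called in any of the 5 comparisons. Fgf11, like Fgf13 an FGF homologous factor, was the most abundant, with 11.5 ± 0.535 CPM (SD, n = 3) in wild-type control, 14.7 ± 2.38 in wild-type high-fat, 18.8 ± 2.33 in transgenic control and 16.8 ± 0.852 in transgenic high-fat tissue. On control diet it was thus higher in transgenic mice in 3 of 3 libraries, where Fgf13 was lower (log2 difference 0.70, SE 0.13), and this difference did not pass edgeR's test (adjusted p = 0.109). Over the alternatives its adjusted p ran from 0.00137 to 0.503, and without transgenic control library 3 it was 0.0456, for a difference of 0.80.

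Fgf7, a stromal ligand for epithelial Fgfr2, had 9.56 ± 1.96 CPM in wild-type control and 5.48 ± 1.44 in transgenic control tissue. That difference of -0.80 (SE 0.22) did not pass the test (edgeR adjusted p = 0.218), nor did that of Fgf9, an FGF made by mesothelium in other organs, with diet in transgenic mice, from 7.82 ± 2.34 to 5.05 ± 2.68 CPM (-0.63, SE 0.35, adjusted p = 0.283). Between the genotypes on control diet, DESeq2 called Fgf7 lower in transgenic mice (-0.79, adjusted p = 0.0378). Fgf18 had group means of 2.56 to 3.8 CPM. Fgf3, Fgf8, Fgf15 and Fgf23 had no count in any library.

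Of 6 other receptors and co-receptors 4 were tested and none was called. Fgfrl1, a receptor without a kinase domain, had group means of 305 to 330 CPM, and Lctl, a klotho relative, of 78.4 to 103 CPM with wide spread. Fgfr2 and Fgfr3 stood at 9.13 to 11.8 and 8.59 to 11.1 CPM. Fgfr4 and Kl, the klotho that serves Fgf23, were too low to be tested.

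Over the 94 pathway genes edgeR called 2 with diet in wild type (2.13%, 1 higher and 1 lower) and 8 in transgenic mice (8.51%, 6 higher and 2 lower), beside 1.14% and 8.73% of all genes tested. None was called in the other 3 comparisons, where 9, 7 and 6 had an unadjusted p below 0.05. DESeq2 called 10 (10.9% of those it gave an adjusted p) and 13 (13.8%) with diet in wild-type and transgenic mice, beside 5.61% and 13.4% of all genes. Between the genotypes it called 3 (3.37%) on control and 1 (1.27%) on high-fat diet, and 0 for the difference between the diet effects, beside 1.88%, 0.0813% and 0.164% of all genes.

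The list of FGF binding and heparan sulfate genes gave 4 of these calls, all with diet in transgenic mice (4 of 24 tested, 16.7%, beside 8.73% of all genes). Sdc3, a heparan sulfate proteoglycan of the cell membrane, measured 56.8, 69.7 and 87.9 CPM in control and 150, 129 and 146 CPM in high-fat libraries. It rose by 0.99 on the log2 scale (SE 0.14, edgeR adjusted p = 0.00262) and was called under all 21 alternatives. In wild type it went from 74.5 ± 1.28 to 113 ± 8.83 CPM (0.59, SE 0.14, adjusted p = 0.06), higher in 3 of 3 libraries. It passed there without transgenic control library 1 (0.60, adjusted p = 0.0423) or library 3 (0.59, adjusted p = 0.0275), with DESeq2 (adjusted p = 0.00374), with no filter beyond 1 count (adjusted p = 0.0138) and on the libraries of the comparison alone (adjusted p = 0.03).

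Hspg2, which encodes the basement membrane proteoglycan perlecan, held 431, 596 and 747 CPM in transgenic control and 994, 1150 and 1790 CPM in transgenic high-fat libraries. It rose by 1.15 (SE 0.24, edgeR adjusted p = 0.0133), with the call lost without control library 1 (0.98, adjusted p = 0.0539) or high-fat library 3 (0.87, adjusted p = 0.0504). In wild type the difference was 0.84 (SE 0.23, adjusted p = 0.0962), and it passed with DESeq2 (adjusted p = 0.00915), with no filter (adjusted p = 0.0211) and on the libraries of the comparison alone (adjusted p = 0.0395). Gpc1, a lipid-anchored heparan sulfate proteoglycan, rose from 30.5 ± 9.87 to 56.5 ± 10 CPM in transgenic mice (0.89, SE 0.21, adjusted p = 0.0247). Its call was lost without control libraries 1 or 2 or high-fat libraries 1 or 3 (0.72 to 0.89, adjusted p = 0.0576 to 0.098), on the libraries of the comparison alone (adjusted p = 0.0617) and without both epithelial libraries (adjusted p = 0.0758).

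Fgfbp1, a secreted protein that releases FGFs from heparan sulfate, went the other way. It measured 8.63, 4.29 and 3.34 CPM in transgenic control and 0.671, 1.49 and 0.648 CPM in transgenic high-fat libraries, a fall of 2.52 on the log2 scale (SE 0.57, edgeR adjusted p = 0.02). The call was lost without control library 1 (-2.01) or high-fat libraries 1 (-2.33) or 3 (-2.31), at adjusted p = 0.0687 to 0.088, and with limma-voom (-2.48, adjusted p = 0.0529). In wild type the libraries held 14.3, 4.98 and 6.25 CPM on control and 2.27, 0.835 and 2.83 CPM on high-fat diet (-2.11, SE 0.53, adjusted p = 0.0761), a difference that passed with DESeq2 (adjusted p = 0.00263) and with no filter (adjusted p = 0.00352). Wild-type control library 1, the highest for Fgfbp1, is 1 of the 2 libraries with epithelial transcripts. Epithelial markers summed to 23 to 101 CPM in wild-type control and 18.2 to 29.3 in wild-type high-fat libraries. In transgenic libraries they summed to 29.1 to 398 on control and 12.9 to 15.8 on high-fat diet. With diet edgeR called 0 of 8 in wild type and 3 of 8 in transgenic mice, all lower, beside 1.14% and 8.73% of all genes. Mesothelial markers were lower in both high-fat groups as well, and the part of epithelial or mesothelial RNA was not tested.

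Of 20 tested feedback inhibitors and target genes, Ccnd1, the cyclin that drives entry into the cell cycle, was called in both genotypes. It rose from 15 ± 3.11 to 29.2 ± 4.68 CPM in wild type (0.96, SE 0.18, edgeR adjusted p = 0.0342) and from 16.3 ± 2.5 to 29.6 ± 4.81 CPM in transgenic mice (0.86, SE 0.18, adjusted p = 0.0161). Leaving out any of the 6 wild-type libraries ended the wild-type call (0.84 to 1.14, adjusted p = 0.0567 to 0.107), as did the replicate block (adjusted p = 0.0601). It also ended without both epithelial (edgeR adjusted p = 0.103) or both muscle libraries (adjusted p = 0.0915). The transgenic call was lost without control library 2 (0.75, adjusted p = 0.0512) or high-fat library 3 (0.85, adjusted p = 0.0517).

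Dusp4, a phosphatase that switches off MAP kinases, fell in transgenic mice from 45.8, 74.9 and 59.5 CPM to 29.6, 28.8 and 27.5 CPM (-1.07, SE 0.19, edgeR adjusted p = 0.00779) and was called under all 21 alternatives. In wild type it went from 57.2 ± 5.38 to 34 ± 9.07 CPM (-0.75, SE 0.19, adjusted p = 0.0771), which passed with DESeq2 (adjusted p = 0.0117) and with no filter (adjusted p = 0.00887). Etv4, an ETS transcription factor downstream of FGF receptors, was called higher in transgenic mice (2.2, SE 0.58, adjusted p = 0.0371) on 4 to 7 counts in control and 15 to 51 counts in high-fat libraries. That call was lost without any 1 of the 3 transgenic control libraries, transgenic high-fat library 3 or wild-type high-fat library 2 (1.42 to 2.38, adjusted p = 0.0555 to 0.163), with limma-voom (adjusted p = 0.0764), on the libraries of the comparison alone (adjusted p = 0.0719) and without both epithelial (adjusted p = 0.0899) or both muscle libraries (adjusted p = 0.0801). None of the 20 relay genes between receptor and MAP kinase, such as Frs2 and Grb2, was called in either genotype.

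Of the 8 tested partners of Fgf13, which are sodium channel subunits and Cavin1, a coat protein of caveolae, only Cavin1 was called. It rose from 1250 ± 75.4 to 1870 ± 27.1 CPM with diet in transgenic mice (0.58, SE 0.15, edgeR adjusted p = 0.0337), and the call was lost when any 1 transgenic library or wild-type high-fat library 2 was left out (0.55 to 0.63, adjusted p = 0.0511 to 0.109). Without both muscle libraries it was lost as well (edgeR adjusted p = 0.0787). In wild type the means of Cavin1 were 1240 ± 291 CPM on control and 1820 ± 70.6 CPM on high-fat diet (0.55, SE 0.15, adjusted p = 0.0886), and it passed without wild-type control library 3 (0.75, adjusted p = 0.015) and with DESeq2 (adjusted p = 0.00512). The 8 other members of that list, among them the sodium channel genes Scn1a and Scn8a, were too low to be tested. Among 12 genes of the Fgf1 and Fgf21 axis in adipocytes, Pnpla2, the adipose triglyceride lipase, fell in wild type from 3420 ± 347 to 2190 ± 44.1 CPM (-0.64, SE 0.13, adjusted p = 0.0411), and in transgenic mice went from 4220 ± 457 to 3190 ± 202 CPM (-0.40, adjusted p = 0.0765), where DESeq2 called it (adjusted p = 0.00481). In wild type the call ended in 9 of 12 fits without 1 library (-0.72 to -0.59, adjusted p up to 0.166), among them all 6 that left out a wild-type library, and also with no filter, on the libraries of the comparison alone and with the replicate block (adjusted p = 0.063, 0.0658 and 0.0696). The wild-type call of Pnpla2 was also lost without both epithelial (edgeR adjusted p = 0.0755) or both muscle libraries (adjusted p = 0.0824).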

How the data were processed

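The authors deposited a raw read count per gene for each of the 12 libraries and 4 tables of their own comparisons, in which the log2 fold change and the adjusted p-value come from DESeq2, per the file headers. Zymo kit extraction and DNBseq library preparation are given per the labels' protocols. HISAT2 2.2.0, HTSeq 2.0, DESeq2 1.32.0 and mm10 are named per the submitters' processing notes. For annotation and strand setting, no source used here gives a value. The 5 summary rows of each file (16.8% to 21% of reads) were left out.

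Genes with too few counts were removed (filterByExpr, minimum 10 a library and 15 in total), counts were scaled with TMM, and the 12 libraries were fitted together, with 1 mean a group, in edgeR 4.0.16 in R 4.3.3 (quasi-likelihood F test, 8 residual degrees of freedom, biological coefficient of variation 20.1%). p-values were adjusted by Benjamini-Hochberg over 16550 genes, and a gene was called below 0.05. Log2 CPM used a prior count of 2. CPM per kilobase used exon unions of GENCODE vM21. The fit was tested on simulated data. Libraries differed beyond sampling noise (lowest chi-square per degree of freedom between libraries 20.7). Group and replicate number came from sample titles. Alternatives were DESeq2 1.42.0, limma-voom (3.58.1), RLE scaling, 2 other filters, the libraries of the comparison alone, a replicate block, transcript length, and leaving out libraries singly or in the 2 pairs with epithelial or muscle transcripts.

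The 7 genes, the pathway and marker lists and the alternatives were chosen with earlier results of these data known. Named were all 7 genes and every pathway gene called in any comparison (at most 12 a comparison). Also named were up to 4 further FGFs and receptors by mean CPM. The 5 genes most correlated with Fgf13 were named too (mean of at least 1 CPM, predicted genes left out). Of the 16 marker lists, those that stood apart in a library or followed an FGF gene in some groups are given. The others are in the closing section. Counting error and library spread alone are covered by the errors given.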

Additional observations from a re-analysis of the deposited data

How the results depend on the processing

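With DESeq2, 871, 2209, 262, 9 and 27 genes were called for diet in wild type, diet in transgenic mice, the transgene on control diet, the transgene on high-fat diet and the difference between the diet effects. With no filter beyond 1 count they were 683 for diet in wild type, 269 for the transgene on control diet, 5 for the transgene on high-fat diet and 53 for the difference between the diet effects. Fitted on the libraries of the comparison alone, diet in transgenic mice gave 764 calls and the transgene on control diet 0. The difference between the diet effects uses all 12 libraries by construction, so that alternative was not run for it. With the replicate block, diet in wild type gave 99 calls and the transgene on control diet 0. The labels do not say that the numbers pair the libraries. Correlations between same-numbered libraries ran from -0.11 to 0.27. Libraries with different numbers were not set beside them, so pairing was not tested. Without both epithelial libraries the counts were 32 for diet in wild type, 826 for diet in transgenic mice, 1 for the transgene on control diet and 1 for the difference between the diet effects, and without both muscle libraries 23 for diet in wild type and 16 for the transgene on control diet. Leaving out 1 library at a time gave 0 to 269 calls for diet in wild type, 543 to 1504 for diet in transgenic mice, 0 to 58 for the transgene on control diet and 0 to 8 for the difference between the diet effects. The cause of these shifts was not tested. Fits with fewer libraries also have fewer degrees of freedom.

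The differences of Fgf13 ran from 2.07 to 2.23 for diet in transgenic mice, from 0.74 to 1.04 for diet in wild type and from -1.22 to -1.01 for the transgene on control diet over 21 alternatives. Calls of the 7 genes are listed because they moved with the setting, and nothing is read from them. The call in wild type was lost without wild-type control library 1 (0.91) or 2 (0.84), wild-type high-fat library 1 (0.74) or 2 (0.97) and without both epithelial libraries (0.91). For the transgene on control diet it was lost on the libraries of the comparison alone, with the replicate block, without both epithelial libraries, and without transgenic control 1 or 2, any transgenic high-fat library, wild-type control 1 or 2, or wild-type high-fat 2 (-1.22 to -1.11). The difference between the diet effects of Fgf13 was called by DESeq2 (1.21) and with no filter (1.22) alone. Fgf1 ran from -1.13 to -0.85 in transgenic mice, with the call lost without transgenic high-fat library 1 (-0.87) or 3 (-0.90). In wild type it ran from -1.14 to -0.76 and was called in 7 of 21. Of the 12 fits without 1 library, only those without transgenic control library 3 (-0.94) or transgenic high-fat library 2 (-0.93) called it. Klb in transgenic mice was called by DESeq2 (-0.67), with no filter (-0.67), without both muscle libraries (-0.87) and without transgenic control library 3 (-0.87). The levels per kilobase moved beyond 1 SD with the longest transcript in 17 of 28 gene and group pairs. Depth limits Fgf21, at 11 to 37 counts a library, more than the other genes.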

Other observations

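Other marker lists gave these sums. Progenitor and fibroblast markers ran from 1650 to 2430 CPM in the 12 libraries, smooth muscle and pericyte markers from 673 to 1070, endothelial markers from 688 to 1170, exocrine pancreas markers from 8.04 to 25.8 and B cell markers from 6.9 to 23.9. Prss2, Cela2a, Pnlip, Amy2a5 and Try4 of the pancreas list were at 0 counts in every library. Liver markers summed to 1680 to 5270 CPM in the control and 474 to 1270 CPM in the high-fat libraries, a sum made mostly of Cyp2e1 (mean 1790 CPM). Their median log2 difference with diet was 2.91 in wild type, where high-fat library 2 stood apart from the other 11 libraries (mean log2(CPM + 1) of 4.33 against 1.71 to 2.38), and 0.41 in transgenic mice.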
